A study of Mus musculus with 15 samples.

Results

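The 10 genes described here, Dcn, Lum, Dpt, Pi16, Mfap5, Smoc2, Cxcl14, Hic1, Ly6a and Dpp4, are known from fibroblasts and fibro-adipogenic progenitors, the mesenchymal cells that lie between muscle fibres. They were taken by name from the 55536 genes of 2 deposited tables that were joined by gene identifier, and all 10 were found and passed the filter on low values in every comparison. The data were normalized read counts of poly(A) RNA from skeletal muscle of 15 mice aged 2 months, all labelled male, a label that 1 library goes against (below). The 5 control mice are labelled wild type. The 5 knockout mice are labelled PdgfrB Knock Out, which the series describes as restricted to myogenin-expressing cells. The 5 D489V mice are labelled PdgfrB D489V, which the series describes as a constitutively active form restricted to the same cells. Myogenin is a transcription factor of differentiating muscle cells, so neither allele is aimed at the fibroblasts in which these 10 genes are best known. The labels give no muscle, Cre line, strain, litter or batch, and they describe the replicates only as separate samples, so p-values measure the spread between these samples.

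Fibro-adipogenic progenitors make much of the matrix around the fibres, signal to muscle stem cells after injury, and can give rise to fibroblasts and adipocytes. They are commonly sorted by the receptor Pdgfra and by Sca-1, the protein of Ly6a. Single-cell work on connective tissues has divided such cells into a Pi16 and Dpp4 population, often found around vessels and in fascia, and populations nearer the parenchyma that carry genes such as Cxcl14, Smoc2 and Col15a1. None of the 10 genes belongs to these cells alone: tendon cells also make Dcn and Lum, and endothelial cells also make Ly6a. In RNA from whole muscle, fewer cells of a type and less RNA per cell cannot be told apart.

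Promoter sequences were at hand for 5 of the 10 genes, from RefSeq on GRCm38.p6. The 250 bases before the annotated start are shown for 4 of them, because Pi16 and Dpp4 moved together from mouse to mouse in the values below while Cxcl14 was in no pair that passed, and Dpt stood with the matrix genes. Starts here are those of the promoter entries, which can differ from the gene coordinates given further below. The Pi16 window lies inside the Pi16 gene as placed there (chr17:29317680-29330593). The Dpt window runs past the Dpt start placed there (chr1:164796644). Capitals mark the searched motifs, which were looked for on both strands.
Pi16 (chr17:29318632-29318881, plus strand): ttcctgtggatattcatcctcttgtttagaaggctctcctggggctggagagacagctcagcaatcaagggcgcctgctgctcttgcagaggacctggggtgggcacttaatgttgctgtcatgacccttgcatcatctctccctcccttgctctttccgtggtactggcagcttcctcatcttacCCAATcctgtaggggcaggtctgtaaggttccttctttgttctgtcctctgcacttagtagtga
Dpp4 (chr2:62412232-62412481, minus strand): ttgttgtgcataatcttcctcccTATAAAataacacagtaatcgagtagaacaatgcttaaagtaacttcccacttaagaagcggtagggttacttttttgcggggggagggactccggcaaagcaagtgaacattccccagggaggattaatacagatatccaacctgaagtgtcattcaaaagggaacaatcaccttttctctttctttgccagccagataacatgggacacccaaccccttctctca
Dpt (chr1:164796413-164796662, plus strand): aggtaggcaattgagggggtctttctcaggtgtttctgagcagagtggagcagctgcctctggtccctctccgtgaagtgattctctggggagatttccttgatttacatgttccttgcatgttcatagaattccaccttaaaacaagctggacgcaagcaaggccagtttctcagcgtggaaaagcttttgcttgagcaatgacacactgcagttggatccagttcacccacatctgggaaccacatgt
Cxcl14 (chr13:56296552-56296801, minus strand): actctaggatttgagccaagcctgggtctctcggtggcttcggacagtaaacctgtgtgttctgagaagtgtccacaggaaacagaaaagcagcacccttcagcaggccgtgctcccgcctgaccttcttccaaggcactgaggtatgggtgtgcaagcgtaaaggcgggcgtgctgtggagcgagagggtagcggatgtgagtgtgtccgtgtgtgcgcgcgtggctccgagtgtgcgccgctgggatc
The Pi16 window held 1 CCAAT, 64 to 60 bases before the start, and the Dpp4 window held 1 TATAAA, 227 to 222 bases before the start. The Dpt and Cxcl14 windows held none of the 4 motifs searched. Hic1 has 2 entries, and its upstream window held CCAAT at 2 places and GGGCGG at 3, while its downstream window held GGGCGG at 2 places. Among the windows of all 32851 promoters, 12.4% held TATAAA, 33.8% CCAAT, 32.7% GGGCGG and 6.7% TGANTCA, the AP-1 motif. No motif was shared by Pi16 and Dpp4 in these windows.

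The sum of normalized counts lay between 29815559 and 36489777 per mouse, and the 5 control columns were identical in both tables. The median ratio of each mouse to the geometric mean of all 15 lay between 1.0069 and 1.0097, which is the basis for comparing knockout with D489V directly. Pdgfrb itself was read at 1754 ± 72.9 (SD, n = 5) in control, 1308 ± 266 in knockout and 906 ± 106 in D489V, and it was called lower in D489V than in control (log2 change -0.96, limma adjusted p = 0.00168) but not in knockout (-0.45, adjusted p = 0.294). Every knockout mouse still lay below every control for Pdgfrb, at 958 to 1628 against 1673 to 1848 (exact permutation p = 0.00794). Several libraries stood apart. The library labelled knockout 3, from a male mouse by its label, held Xist, the RNA of the inactive X chromosome, at 3165 against at most 101 elsewhere. D489V 3 held the epidermal keratins Krt5 at 1439 and Krt14 at 961, against at most 54 and 14 elsewhere, and a Schwann cell and nerve sum of 51797 over 10 genes against 6915 to 15996. Control 5 and knockout 3, 4 and 5 held lymph node markers at sums of 1432 to 5522, against 34 to 283 in the other 11 mice. Some calls and medians below are also given without such libraries. Fits without knockout 3, 4 and 5 keep only knockout 1 and 2 in that group, so fewer calls there can come from fewer mice.

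**Figure D1:**
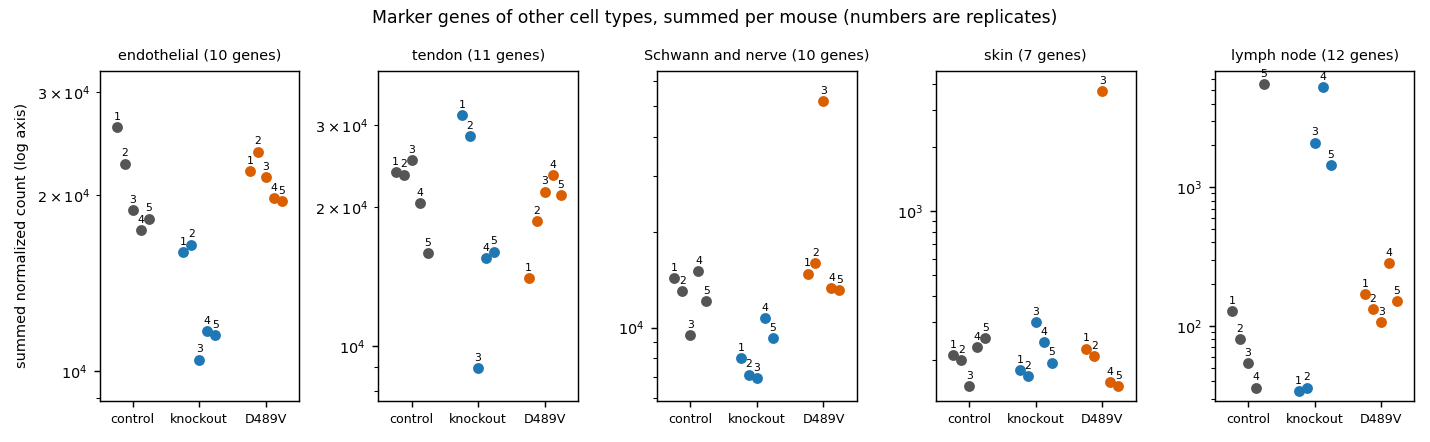
Summed normalized counts of marker genes of 5 other cell types or tissues (y axes, log scale) in each of the 15 mice, by group (x axes), with replicate numbers beside the points. D489V 3 stands alone in the skin and the Schwann and nerve panels, knockout 3 is lowest in the endothelial and tendon panels, and the 5 knockout mice lie below the other 10 in the endothelial panel.

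No gene of the 10 passed the threshold of an adjusted p of 0.05 in any of the 3 comparisons. In knockout against control, 0 of 10 were called in limma, against 0.00656% of all 15234 genes tested, and 1 of 10 (Hic1) had an unadjusted p under 0.05, against 15.1% of all genes. In D489V against control, 0 of 10 were called, against 0.0587% of 15339 genes, and 0 of 10 had an unadjusted p under 0.05, against 9.43%. In knockout against D489V, 0 of 10 were called, against 20.8% of 15299 genes, and 1 of 10 (Ly6a) had an unadjusted p under 0.05, against 37.7%. The first 2 comparisons share the control mice.

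The log2 changes leaned downward in knockout without reaching the threshold. All 10 lay below 0 in knockout against control, from -0.46 (Hic1) to -0.02 (Smoc2), with a median of -0.26, while the median of all genes tested was 0.01 and 48.5% of them lay below 0. Because some of the 10 genes vary together from mouse to mouse, this count is not 10 separate observations. Markers of some other cell types leaned the same way without a call. Of the endothelial genes 10 of 10 lay below 0 (median -0.64, all 10 at an unadjusted p under 0.05). The same held for 9 of 9 Schwann cell and nerve genes (median -0.55, 6 at an unadjusted p under 0.05). It also held for 11 of 11 tendon genes (median -0.15, 1 at such a p). Mural genes had 8 of 10 below 0 (median -0.29) and adipocyte genes 7 of 9 (median -0.19). Other lists did not lean down. Below 0 lay 5 of 10 macrophage genes (median 0.01), 4 of 8 satellite cell genes (0.06) and 3 of 8 myofibre genes (0.07). Of 2 tested skin genes 1 lay below 0, and all 4 tested lymph node genes lay above 0 (median 1.05). Without control 5 and knockout 3, 4 and 5 the endothelial and nerve medians were -0.32 and -0.72 with every gene still below 0, while 10 of 11 tendon genes lay above 0 (median 0.42). Their part in the lean of the 10 genes was not tested. Without knockout 3 the median was -0.17 and 8 of 10 lay below 0, without control 1 it was -0.16 with 10 of 10 below 0, and without control 5 and knockout 3, 4 and 5 it was -0.22 with 7 of 10 below 0. In D489V against control 6 lay below 0 and 4 above, with a median of -0.07 against 0 over all genes, and leaving out 1 mouse at a time gave medians from -0.18 to -0.01. In knockout against D489V 9 of 10 lay below 0 with a median of -0.15. That median was -0.06 without knockout 3, -0.08 without D489V 3, and 0.05 without both. Without knockout 3, 4 and 5 it was -0.1, with 6 of 10 below 0.

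These intervals set what the design could show. The half-width of the 95% interval of a log2 change ran from 0.2 (Smoc2) to 0.5 (Cxcl14) in knockout against control, from 0.18 to 0.57 (Pi16) in D489V against control, and from 0.18 to 0.61 (Pi16) in knockout against D489V. No gene of the 10 had groups without overlap, whereas 2.24%, 2.16% and 13.9% of all genes did in the 3 comparisons.

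**Figure D2:**
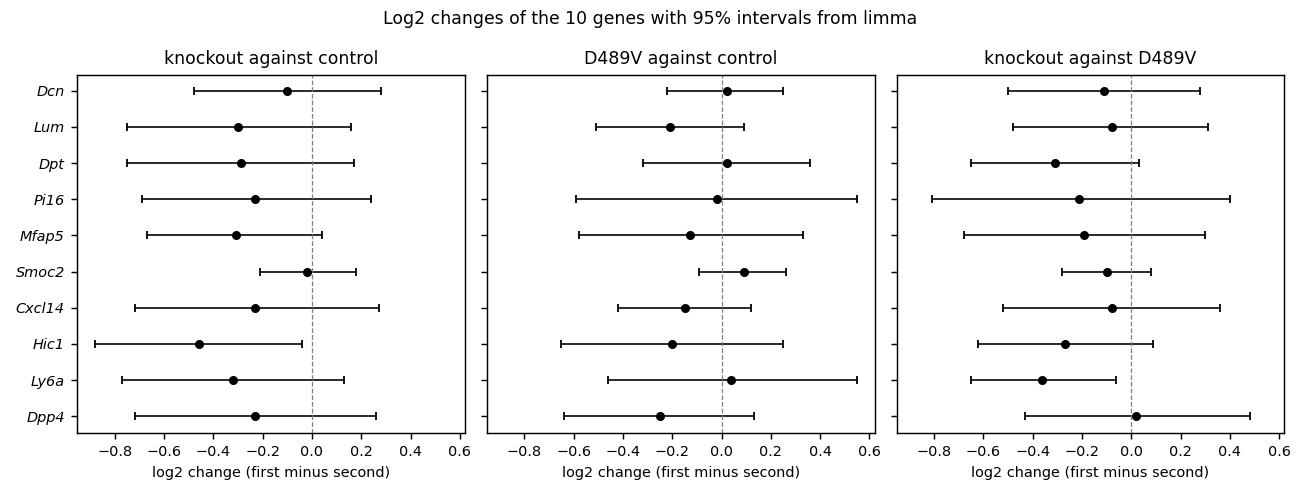
Log2 change of each of the 10 genes (y axis) in the 3 comparisons, with limma's 95% interval; the x axis is the difference in log2(value + 1), first group minus second, with 5 mice a group. All 10 points lie below 0 in knockout against control, and the intervals of Hic1 there and of Ly6a in knockout against D489V are the 2 that do not reach 0.

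Levels per length ranked the genes over a wide range. Per kilobase of merged exons, control muscle held Dcn at 1580 ± 119 (SD, n = 5), Cxcl14 at 1051 ± 188, Dpt at 1047 ± 268, Ly6a at 1002 ± 363, Lum at 469 ± 89.5, Smoc2 at 412 ± 33.6, Mfap5 at 171 ± 23.5, Pi16 at 161 ± 37.7, Hic1 at 102 ± 28 and Dpp4 at 28.6 ± 5.69 normalized counts. Dcn lay above Cxcl14, Ly6a above Lum, Smoc2 above Mfap5 and Hic1 above Dpp4 without overlap between mice. The neighbours Cxcl14 and Dpt, Dpt and Ly6a, Lum and Smoc2, Mfap5 and Pi16, and Pi16 and Hic1 overlapped, although Pi16 was above Hic1 within each of the 5 control mice.

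**Figure D3:**
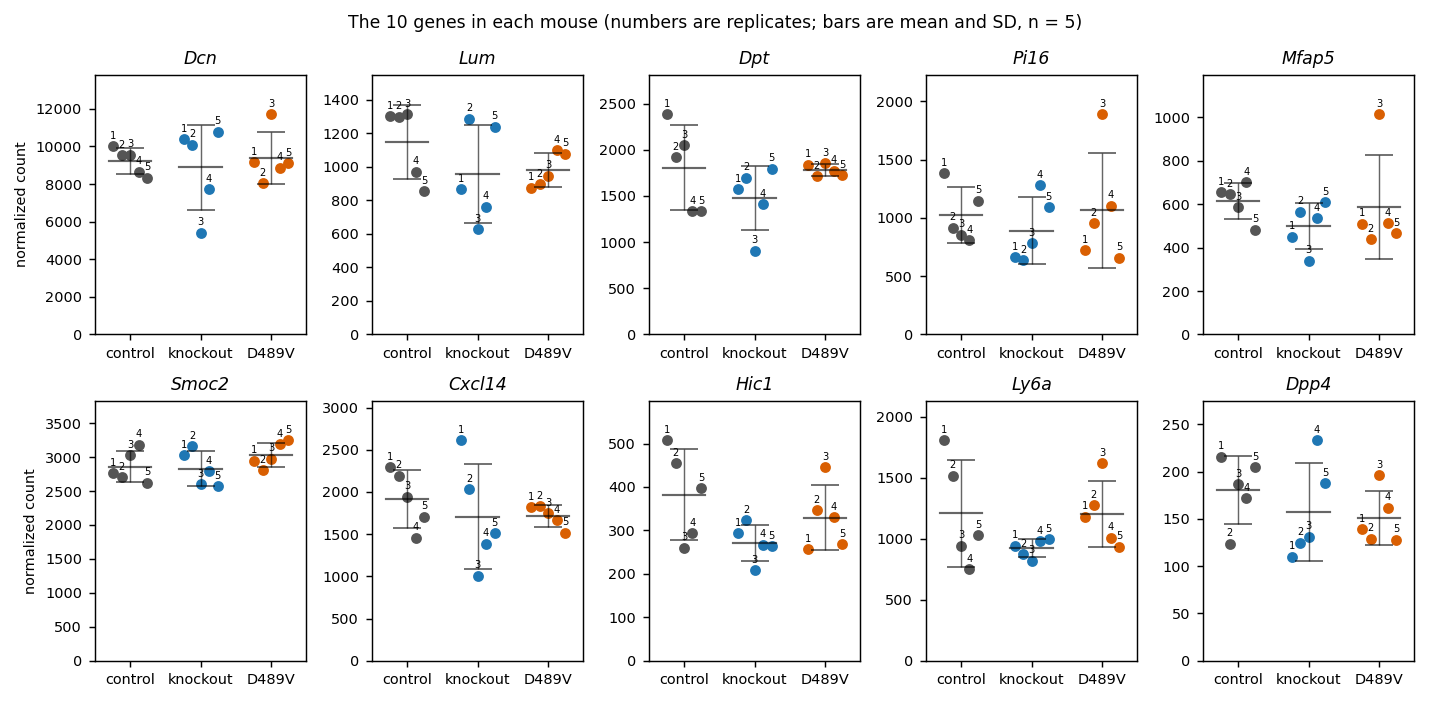
Normalized count (y axes, from 0) of each of the 10 genes in each mouse by group (x axes), with replicate numbers beside the points and bars for the mean and SD of 5 mice. The groups overlap in every panel, Smoc2 has the narrowest spread, and knockout 3 and D489V 3 lie at opposite ends for Dcn and Mfap5.

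Dcn and Lum encode decorin and lumican, small leucine-rich proteoglycans that bind collagen fibrils. They are neighbours on chromosome 10 (Dcn, ENSMUSG00000019929, chr10:97479609-97518143, plus strand; Lum, ENSMUSG00000036446, chr10:97565128-97572703, plus strand, GRCm38), 47.0 kb apart, and Kera, a further proteoglycan gene, lies 34.2 kb beyond Lum. The normalized count of Dcn was 10004, 9549, 9567, 8658 and 8348 in the control mice. It was 10400, 10084, 5404, 7737 and 10786 in the knockout mice, and 9155, 8058, 11718, 8861 and 9120 in the D489V mice. Knockout 3 was the lowest of all 15 and D489V 3 the highest, while 3 of the 5 knockout mice lay above every control. The knockout mean of 8882 ± 2279 (SD, n = 5) and the D489V mean of 9382 ± 1379 differed from the control mean of 9225 ± 693 by -0.10 and 0.02 on the log2 scale (95% intervals -0.48 to 0.28 and -0.22 to 0.25; limma adjusted p = 0.793 and 0.974). Without knockout 3 the knockout change of Dcn was 0.07.

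Lum stood at 1303, 1300, 1314, 971 and 855 in control, at 866, 1288, 628, 762 and 1240 in knockout, and at 876, 898, 948, 1098 and 1079 in D489V. Controls 1, 2 and 3 lay above all the other mice, and knockout 2 and 5 were close to them while the other 3 knockout mice were near or below the lowest control. The log2 change of Lum was -0.30 in knockout (interval -0.75 to 0.16, limma adjusted p = 0.478) and -0.21 in D489V (-0.51 to 0.09, adjusted p = 0.664). Kera, which is also a tendon gene, ran from 585 to 1244 in control, 327 to 1414 in knockout and 514 to 989 in D489V.

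Dpt encodes dermatopontin, a small matrix protein that binds decorin (ENSMUSG00000026574, chr1:164796644-164824266, plus strand, with an antisense gene over it). Its values were 2385, 1918, 2052, 1333 and 1335 in control. In knockout they were 1570, 1699, 905, 1413 and 1796, and in D489V 1837, 1714, 1856, 1773 and 1724. The D489V mice were closely alike, with an SD of 64.3 around 1781, whereas the control SD was 462 around 1805. Against D489V, 4 of the 5 knockout mice lay below every D489V mouse, the log2 change was -0.31 (interval -0.65 to 0.03), the limma adjusted p was 0.168 and the exact permutation p was 0.0476. Against control the change of Dpt in knockout was -0.29 (adjusted p = 0.496).

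Mfap5 encodes a microfibril-associated glycoprotein that sits on fibrillin microfibrils (ENSMUSG00000030116, chr6:122505845-122529290, plus strand). It was read at 656, 647, 587, 702 and 483 in control, 450, 565, 340, 537 and 610 in knockout, and 510, 439, 1015, 512 and 466 in D489V. One mouse set the upper end: D489V 3, at 1015, was far above the other 4 D489V mice at 439 to 512, and it is also the mouse with the keratin and nerve genes, whose part in this value was not tested. The log2 change of Mfap5 was -0.31 in knockout (interval -0.67 to 0.04, limma adjusted p = 0.361) and -0.13 in D489V (-0.58 to 0.33, adjusted p = 0.882).

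Smoc2, a secreted calcium-binding protein of the SPARC family (ENSMUSG00000023886, chr17:14279506-14404790, plus strand, with an antisense gene over it), was the steadiest of the 10. Its values ran from 2625 to 3180 in control, 2574 to 3163 in knockout and 2809 to 3245 in D489V, so that the 15 mice spanned 0.33 on the log2 scale. The other 9 genes spanned 1.06 to 1.58. The log2 change of Smoc2 was -0.02 in knockout, where its interval of -0.21 to 0.18 was the narrowest, and 0.09 in D489V (-0.09 to 0.26). The knockout interval leaves room for a change of 0.863-fold to 1.13-fold.

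Cxcl14, a chemokine of connective tissue and skin (ENSMUSG00000021508, chr13:56288643-56296551, minus strand), was read at 2294, 2194, 1946, 1457 and 1709 in control. The knockout mice held 2610, 2030, 1006, 1388 and 1510, and the D489V mice 1818, 1833, 1748, 1667 and 1519. The knockout group held both the highest and the lowest of the 15 mice, knockout 1 and knockout 3, with an SD of 623 against 344 in control and 129 in D489V. The log2 change was -0.23 in knockout (interval -0.72 to 0.27, limma adjusted p = 0.623) and -0.15 in D489V (-0.42 to 0.12, adjusted p = 0.752).

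Pi16, a secreted or membrane-tethered protein of the CAP family, and Dpp4, a cell-surface dipeptidase, mark the same fibroblast population. Pi16 (ENSMUSG00000024011, chr17:29317680-29330593, plus strand) was read at 1385, 918, 858, 809 and 1147 in control, 662, 636, 781, 1283 and 1094 in knockout, and 721, 956, 1891, 1106 and 658 in D489V. D489V 3 was again the highest of the 15, and 3 knockout and 2 D489V mice lay below every control. Its log2 change was -0.23 in knockout (interval -0.69 to 0.24, limma adjusted p = 0.596) and -0.02 in D489V (-0.59 to 0.55, adjusted p = 0.989). Without D489V 3 the D489V change of Pi16 was -0.25.

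Dpp4 (ENSMUSG00000035000, chr2:62330073-62412231, minus strand) was the lowest of the 10, at 216, 124, 187, 172 and 205 in control, 110, 125, 131, 233 and 188 in knockout, and 139, 129, 196, 162 and 128 in D489V. The knockout mice held both ends of the 15, knockout 1 the lowest and knockout 4 the highest. The log2 change was -0.23 in knockout (interval -0.72 to 0.26, limma adjusted p = 0.608) and -0.25 in D489V (-0.64 to 0.13, adjusted p = 0.685). Antisense genes overlap both Pi16 and Dpp4, and 3.9% and 2.9% of the 50-base windows of their transcripts also occur in other genes. The library kit keeps strand, but whether the counting used it is not given in the sources used here. Fap, the fibroblast activation protein gene and the closest relative of Dpp4, ran from 268 to 405 in control, 229 to 367 in knockout and 258 to 345 in D489V.

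Ly6a, the gene of the surface protein Sca-1 (ENSMUSG00000075602, chr15:74994877-74998031, minus strand), was read at 1804, 1516, 942, 749 and 1028 in control. The knockout mice held 943, 872, 820, 981 and 997, and the D489V mice 1180, 1274, 1616, 1009 and 934. Knockout mice were closely alike, with an SD of 74.9 around 923, and 2 of them lay below every D489V mouse, while controls 1 and 2 lay far above the rest of their group. Against D489V the log2 change of Ly6a was -0.36 (interval -0.65 to -0.06, a fold of 0.78). Its limma adjusted p was 0.0753 and its exact permutation p 0.0397, the lowest of the 10 genes in that comparison. Over the alternative settings the adjusted p ranged from 0.031 to 0.244, and it passed the threshold with array weights and without D489V 5. Against control the change was -0.32 (interval -0.77 to 0.13, adjusted p = 0.448).

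Endothelial genes moved the same way beside Ly6a. The sum of 10 endothelial markers was 17439 to 26155 in control, 10454 to 16452 in knockout and 19516 to 23746 in D489V, with all 10 called lower in knockout than in D489V, against 10.3% of all genes, and none at 0. Cldn5, a tight junction gene, changed by -1.66 (limma adjusted p = 0.00243) and Pecam1, a junction and adhesion gene, by -0.48 (adjusted p = 0.0131). Without knockout 3, 4 and 5 together, 1 of the 10 endothelial genes was called. All 10 still lay below 0 in that fit, with a median of -0.36 in place of -0.67. Since endothelium also makes Ly6a, its part in the Ly6a difference was not tested. Of the 50-base windows of Ly6a transcripts, 19.0% are shared with other genes, mainly Ly6c1, Ly6i and Ly6c2, so reads could be split between them.

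Hic1 encodes a transcriptional repressor that keeps mesenchymal progenitors quiescent (ENSMUSG00000043099, chr11:75164565-75169519, minus strand). It was read at 507, 455, 260, 293 and 397 in control, 294, 323, 209, 267 and 263 in knockout, and 257, 346, 445, 331 and 268 in D489V. The knockout mice clustered between 209 and 323, within the lower part of the control range, and 1 of them lay below every control. The log2 change of -0.46 in knockout (interval -0.88 to -0.04, a fold of 0.725) was the furthest from 0 of the 10, with an unadjusted p of 0.0331, a limma adjusted p of 0.312 and an exact permutation p of 0.0952. After adjustment over all genes it was therefore not called. In D489V the change was -0.20 (interval -0.65 to 0.25, adjusted p = 0.803).

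Most of the variation in these genes lay within the groups. The groups held from 3.9% (Dcn) to 29.4% (Hic1) of the sum of squares of the log2 values, and Hic1 alone exceeded the median of 24.5% over 15807 genes. Knockout 3 was the lowest of the 15 mice for 6 genes (Dcn, Lum, Dpt, Mfap5, Cxcl14 and Hic1), with a median of -0.64 relative to the mean of the 15. It also held the lowest sums of tendon, endothelial, nerve and macrophage markers, at 8963, 10454, 6915 and 2006, and their part in its low values was not tested. D489V 3 was the highest of the 15 for Dcn, Pi16 and Mfap5, with Pi16 at 1.00 and Mfap5 at 0.88 above the mean, although its Lum lay at -0.08 and its Cxcl14 at 0.01. Control 1 was the highest for Dpt, Hic1 and Ly6a.

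**Figure D4:**
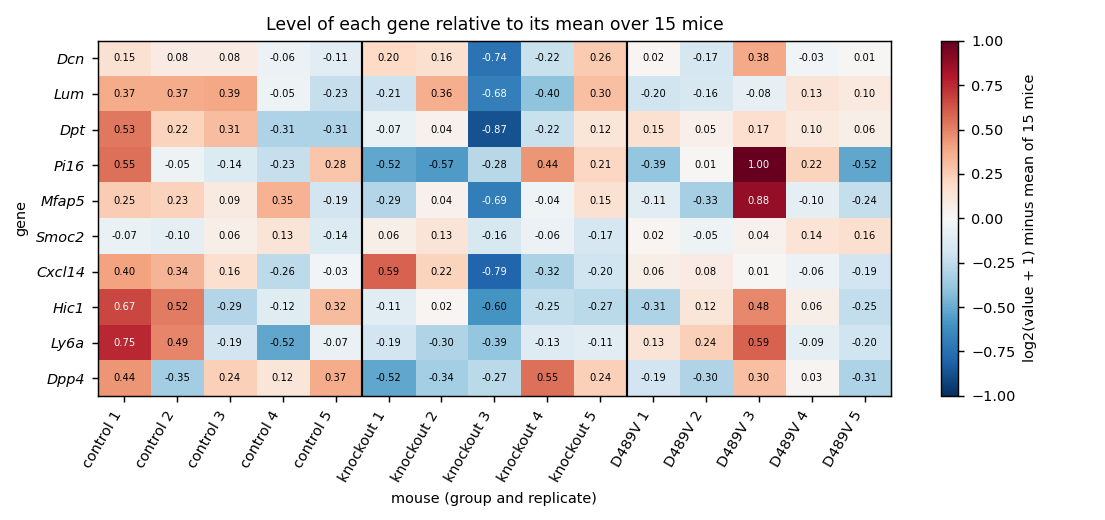
Log2(value + 1) of each of the 10 genes (rows) in each of the 15 mice (columns), minus the gene's mean over the 15; black lines part the groups. Knockout 3 is low across most rows, with values down to -0.87 for Dpt, D489V 3 is high for Pi16 (1.00) and Mfap5 (0.88), and the Smoc2 row stays between -0.17 and 0.16.

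Of the 10 genes 5 were in pairs that moved together from mouse to mouse. After centring each gene on its group mean, 37 of the 45 pairs had a positive Pearson correlation over the 15 mice, and 3 passed an adjusted p of 0.05 over the 45 pairs, by 100000 permutations within groups. Dcn and Dpt had r = 0.80 (permutation p = 6e-05, adjusted 0.0027) and Spearman rho = 0.84 (permutation p = 3e-05, adjusted 0.00135). Lum and Dpt had r = 0.83 (permutation p = 0.00177, adjusted 0.0265) and rho = 0.85 (permutation p = 0.0014, adjusted 0.0237). Dcn and Lum had r = 0.72 (permutation p = 0.0131), which did not pass (adjusted p = 0.0767). Without the 2 mice farthest from the median, r was 0.71 for Dcn and Dpt and 0.77 for Lum and Dpt, and without knockout 3 alone it was 0.64 and 0.76.

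Pi16 and Dpp4 were the third pair, with r = 0.80 (permutation p = 0.00043, adjusted 0.00967) and rho = 0.78 (permutation p = 0.00158, adjusted 0.0237). Without the 2 farthest mice r was 0.71, and without knockout 3 it was 0.80. With Dcn, Lum, Dpt and Cxcl14 the values were lower. Pi16 had r = 0.18 with Dcn, -0.06 with Lum, 0.16 with Dpt and -0.11 with Cxcl14, and Dpp4 had r = -0.31 with Cxcl14, none of which passed (permutation p = 0.42 to 0.815). With the other genes Pi16 had r = 0.59 (Ly6a), 0.56 (Mfap5), 0.55 (Hic1) and -0.46 (Smoc2). Cxcl14 had r = 0.73 with Dpt and 0.71 with Dcn. None of these passed over the 45 pairs (adjusted permutation p = 0.0766 to 0.21). Hic1 and Ly6a had r = 0.78 (permutation p = 0.00726), which did not pass over the 45 pairs (adjusted p = 0.0766). Tendon markers, which share Dcn and Lum with fibroblasts, ranged over sums of 15893 to 25267 in control, 8963 to 31525 in knockout and 14024 to 23401 in D489V, with none of the 11 at 0, and their part in these pairs was not tested. No batch is labelled within which the correlations could be taken again.

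**Figure D5:**
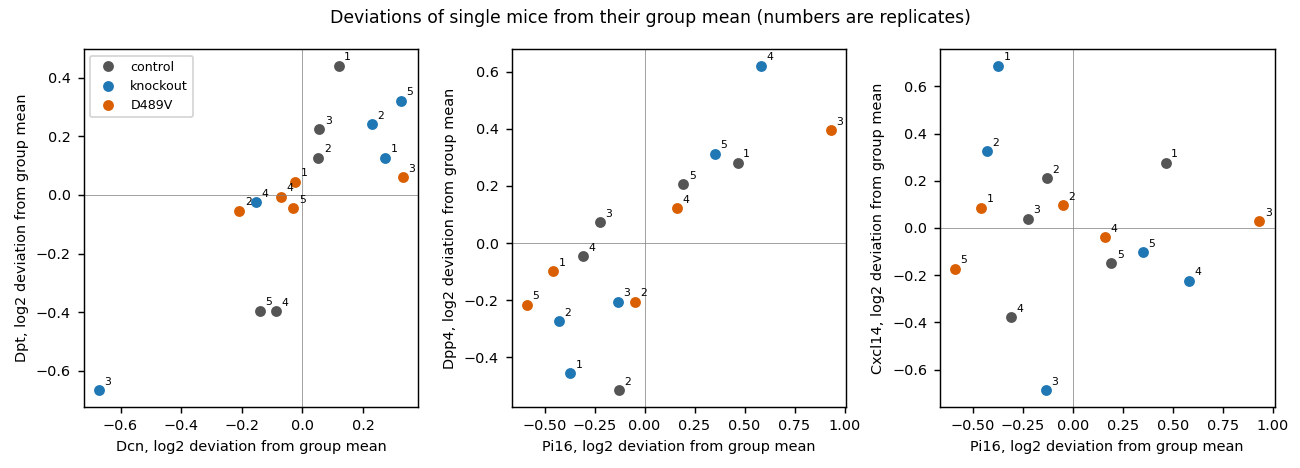
Deviation of each mouse from its group mean, on the log2(value + 1) scale, for Dcn against Dpt (left), Pi16 against Dpp4 (middle) and Pi16 against Cxcl14 (right); each point is 1 of 15 mice, numbered by replicate. The points rise together in the left and middle panels (r = 0.80 in both) and not in the right one (r = -0.11), and knockout 3 lies far from the rest in the left panel.

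The genes whose mouse-to-mouse pattern was most like the mean of the 10, among 12149 genes with a mean of 50 or more, were Pcolce2 (r = 0.96), Ms4a4d (0.94), Ilk (0.93), Lpar1 (0.93) and Nhsl2 (0.92). This is a description over 15 mice centred within groups, and without knockout 3 the values were 0.93, 0.90, 0.89, 0.89 and 0.87. Pcolce2 encodes an enhancer of procollagen processing, Lpar1 a receptor for lysophosphatidic acid, and Ilk a kinase at integrin adhesions. Pcolce2 stood at 237 ± 48.8 (SD, n = 5) in control, 248 ± 69.5 in knockout and 256 ± 46.5 in D489V.

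Pdgfra, the receptor by which these cells are sorted, was read at 681, 661, 697, 578 and 601 in control, 617, 655, 371, 607 and 662 in knockout, and 781, 674, 870, 716 and 819 in D489V. Every knockout mouse lay below every D489V mouse, at a log2 change of -0.43 (interval -0.76 to -0.10), with the smallest exact permutation p that 5 against 5 can give, 0.00794, but a limma adjusted p of 0.0628. Against control, Pdgfra changed by -0.17 in knockout (adjusted p = 0.578) and by 0.26 in D489V (adjusted p = 0.414). Cd34, a surface glycoprotein of progenitors and of endothelium, changed by -0.46 in knockout (adjusted p = 0.276) and by -0.31 in D489V (adjusted p = 0.386).

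Wider fibroblast lists had no call against control in these fits either. In limma 0 of 25 identity genes of fibro-adipogenic progenitors, 0 of 12 genes of the Pi16 and Dpp4 population, 0 of 10 of the Cxcl14 and Smoc2 population, 0 of 11 proteoglycans, 0 of 17 elastic fibre genes and 0 of 13 activated fibroblast genes were called in knockout against control. At an unadjusted p under 0.05 there were 4, 2, 1, 0, 0 and 1, against 15.1% of all genes. The list medians were -0.17, -0.16, -0.23, -0.16, -0.19 and -0.35. Without control 5 and knockout 3, 4 and 5 they were -0.05, -0.19, -0.06, 0.17, 0.05 and 0.05, still with 0 calls. In that fit 10 of 11 proteoglycan genes lay above 0 in place of 10 of 11 below. Without knockout 3 alone the medians were -0.08, -0.08, -0.13, -0.01, -0.05 and -0.18. In D489V against control the same lists, with 13 genes tested in the second, also had 0 calls, with 5, 1, 5, 1, 3 and 2 at an unadjusted p under 0.05, against 9.43% of all genes, and medians of 0, 0.09, 0.19, 0.03, -0.04 and 0.12. Among the most abundant genes of the lists, none called, Tnxb, the matrix protein tenascin X, lay at -0.07 in knockout and 0.10 in D489V, and Eln, the elastin gene, at -0.09 and 0.35. Col15a1, a basement membrane collagen, lay at -0.35 in knockout and -0.46 in D489V, and Fmod, the proteoglycan fibromodulin, at -0.28 and -0.27.

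Between the mutant groups some genes of these lists were called. Of the 25 identity genes 4 were lower in knockout than in D489V and 1 higher, against 10.3% of all genes called lower and 10.5% called higher, with a median of -0.21. Gli1, a transcription factor of hedgehog signalling, was 71.2 ± 9.15 (SD, n = 5) in knockout and 203 ± 73.2 in D489V, with every knockout mouse below every control and every D489V mouse (log2 change -1.43 against D489V, limma adjusted p = 0.00331). C3, complement component 3, changed by -1.25 (adjusted p = 0.0217), Bmp4, a growth factor, by -0.66 (adjusted p = 0.0227), and Tcf7l2, a Wnt pathway factor of muscle connective tissue, by -0.50 (adjusted p = 0.0309). The fifth was Thy1, a surface glycoprotein, which was higher in knockout by 0.45 (adjusted p = 0.0366); it lies outside the naming rule and was named after its value was seen. Gli1 was called with any 1 of the 10 mice left out. Of these 10 fits C3 was called in 9, Bmp4 in 8, Tcf7l2 in 4 and Thy1 in 3. The list median became 0 without knockout 3, 4 and 5 (12 of 25 below 0) and 0 without knockout 3 and D489V 3 (13 of 25). The count of 5 became 3 without knockout 4, D489V 3 or D489V 5, 2 without D489V 1 and 1 without D489V 2, and it was 1 without knockout 3, 4 and 5 together.

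The Cxcl14 and Smoc2 list had 4 of 10 genes lower in knockout than in D489V, against 10.3% of all genes, and a median of -0.42. They were Inmt, a methyltransferase of indoles, at -1.24 (limma adjusted p = 0.0194), Hsd11b1, which regenerates active glucocorticoid, at -1.12 (adjusted p = 0.00719), Apod, a lipid-binding lipocalin, at -0.72 (adjusted p = 0.0257), and Abca8a, a transporter, at -0.39 (adjusted p = 0.0207). Hsd11b1 ran from 132 to 271 in knockout and 274 to 490 in D489V, and the controls, at 148 to 459, overlapped both. Cxcl14 and Smoc2 themselves changed by -0.08 and -0.10 (adjusted p = 0.803 and 0.387). The count of 4 was 2 without D489V 1 and 0 without knockout 3, 4 and 5, where the list median was -0.26. With 1 mouse left out, Hsd11b1 and Abca8a were called in all 10 fits, Inmt in 9 and Apod in 5.

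Of the Pi16 and Dpp4 list, 1 of 13 genes was called, against 20.8% of all genes: Sema3c, a secreted semaphorin, was higher in knockout (2084 ± 222, SD, n = 5) than in D489V (1504 ± 158), by 0.47 (limma adjusted p = 0.0109). Pi16 changed by -0.21 and Dpp4 by 0.02 in the same comparison (adjusted p = 0.616 and 0.949). The count was 2 without knockout 1, D489V 3 or D489V 5, 3 without knockout 2, and 0 without knockout 3, 4 and 5. Among 11 proteoglycan genes, Podn (podocan) was lower in knockout, with a log2 change of -0.48 (adjusted p = 0.0134), with knockout mice at 336 to 484 and D489V mice at 544 to 608. The list had 1 call, lower, with any 1 mouse left out. Without knockout 3, 4 and 5 it had 1 call, higher, and none lower, and the list median turned from -0.16 to 0.33. None of the 17 elastic fibre genes and none of the 13 activated fibroblast genes was called, with 2 and 6 at an unadjusted p under 0.05, against 37.7% of all genes. There was 1 elastic fibre call without knockout 2, lower, and 1 without knockout 3 and without knockout 3, 4 and 5, higher. Acta2, smooth muscle actin, was nearest, at -0.37 (adjusted p = 0.0532), and 1 or 2 activated fibroblast genes were called without knockout 5, D489V 1, D489V 3 or D489V 5.

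Several relatives of the 10 genes were called between the mutant groups. Smoc1, the closest relative of Smoc2, stood at 102 ± 17.1 (SD, n = 5) in knockout and 348 ± 130 in D489V (log2 change -1.67, limma adjusted p = 0.00331), although the controls spanned 38 to 366. Of 6 tested Ly6 cluster genes, Ly6h (-2.05, adjusted p = 0.00349), Gpihbp1, which carries lipoprotein lipase to the capillary lumen (-0.65, adjusted p = 0.00867), and Ly6c1 (-0.50, adjusted p = 0.0152) were lower in knockout than in D489V. Lynx1, a modulator of nicotinic receptors, was higher (1.70, adjusted p = 0.00564). Ly6h was low throughout, at 4 to 9 in knockout, 22 to 52 in D489V and 3 to 66 in control. In the Dpp4 family Dpp6 (1.46, adjusted p = 0.00452), Prep (0.42, adjusted p = 0.0243) and Dpp9 (0.38, adjusted p = 0.0311) were higher in knockout. For each of these called relatives the controls overlapped both mutant groups, as for Lynx1 (1586 to 6677 in control) and Dpp6 (9 to 67). The counts of 4 of 6 and, with Smoc1, 4 of 14 relatives stand beside 20.8% of all genes called. The second was 2 without D489V 1, 2 or 3. With 1 mouse left out, Smoc1 and Dpp6 were called in all 10 fits, Prep in 6 and Dpp9 in 3. Without knockout 3, 4 and 5 together, 1 of 5 tested Ly6 cluster genes and 0 of 13 tested relatives were called.

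Adipocyte genes were the other lineage of these progenitors at hand. Of 9 adipocyte markers 7 were lower in knockout than in D489V, against 10.3% of all genes, with a median of -1.83, such as Adipoq, the adiponectin gene, at 535 to 1118 in knockout and 1294 to 5106 in D489V (log2 change -1.99, limma adjusted p = 0.004). In control Adipoq ran from 179 to 2580, and 0 of 9 markers were called in either comparison with control. In knockout against control 0 had an unadjusted p under 0.05, against 15.1% of all genes, and 7 lay below 0 (median -0.19). In D489V against control 5 had an unadjusted p under 0.05, against 9.43% of all genes, and all 9 lay above 0 (median 1.49). The count of 7 called between the mutant groups was the same with any 1 mouse left out. It was 3 without knockout 3, 4 and 5, where the median was -1.32. Of 9 tested Schwann cell and nerve markers, 8 were also lower in knockout than in D489V (3 to 8 with 1 mouse left out, and 1 without knockout 3, 4 and 5, with a median of -1.08 and then -1.18). Of 10 markers of mural cells, the pericytes and smooth muscle of vessels, 4 were lower and 1 higher, with a median of -0.38. The lower ones were Tagln (-0.72), Kcnj8 (-0.66), Cspg4 (-0.62) and Myh11 (-0.61), and 3 were called, all lower, without knockout 3, 4 and 5. The part of endothelial, adipocyte, nerve and mural cells in the calls of the fibroblast lists was not tested.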

How the data were processed

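Each deposited value is a score, a gene count already normalized by the authors and given as a whole number, as the tables' own name says. The submitters' processing notes name Trim Galore 0.6.0, cutadapt, FastQC, STAR 2.7.0e, DESeq2 1.26.0 and GRCm38, without roles. Counting and its use of strand are not given in the sources used here, and read depth is unknown, so precision rests on the 5 mice a group. All 55536 identifiers matched GENCODE M21, the source of coordinates and exon lengths.

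The test was limma 3.58.1 (R 4.3.3; lmFit, then eBayes with a variance trend; two-sided) applied to log2(value + 1). Genes needed 10 or more in 5 of 10 samples, and p-values were adjusted by Benjamini-Hochberg over all genes tested (threshold 0.05). This scale understates changes of low genes. Permutation tests of 5 against 5 were exact and two-sided. Data were also simulated for 2 groups of 5, both drawn gene by gene from the means and spread of the control mice. There (13873 genes tested) 71.8% of 2-fold and 94.8% of 4-fold changes were recovered, and 2 unchanged genes were called. The spread of the knockout mice did not enter, so recovery in the real knockout comparison may differ. Recovery of smaller changes was not tested. The 10 genes had folds of 0.725 (Hic1) to 0.989 (Smoc2) in knockout against control, so these percentages do not apply to them.

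The 10 genes and all lists were chosen with earlier results of these data known. Named were the 10, Pdgfra, Pdgfrb, up to 4 called genes per list and comparison (or, with none, from the 2 most abundant), the 5 most alike and close relatives. Cd34, like Thy1, was named outside this rule. Alternatives changed pseudocount, filter, scaling, variance model, weights, a replicate block and the libraries included. Leaving out knockout 3 and D489V 3 together, and list counts without libraries or with the block, were added after seeing the data.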

Additional observations from a re-analysis of the deposited data

Results flagged for a closer look

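Mfap5, the microfibril gene, stood out in 1 library. In D489V replicate 3 its log2 value was 9.99 (a normalized count of 1015), while the other 4 D489V mice lay between 8.78 and 9.00. The gap was 0.817 of the group's range, above Dixon's critical value for 5 samples. Of the 30 groups tested (10 genes in 3 groups) 1 was set apart in this way, and chance gives 1.5 at 1 in 20. The same library held the keratin and nerve genes described in the results.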

How the results depend on the processing

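Over the 630 values of the 10 genes under the alternatives, 582 kept their direction and side of the threshold, 2 passed it and 46 changed sign, none of them past the threshold. Ly6a in knockout against D489V passed with array weights (-0.38, limma adjusted p = 0.031), which gave 1 called gene of the 10. Leaving out 1 mouse at a time gave 0 to 1 (without D489V 5: -0.44, adjusted p = 0.0329). The cause was not tested.

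Signs changed in knockout against control with array weights for Smoc2 (0.006), and without control 5 and knockout 3 to 5 for Cxcl14 (0.24), Dcn (0.12) and Smoc2 (0.09). They changed in D489V against control with quantile normalization for Dcn (-0.03), and with array weights for Ly6a (-0.01), Dpt (-0.03) and Dcn (-0.06). In knockout against D489V they changed with upper-quartile rescaling for Dpp4 (-0.03), without knockout 3 to 5 for Lum (0.11), Dpp4 (-0.34), Cxcl14 (0.43), Dcn (0.14) and Smoc2 (0.03), and without knockout 3 and D489V 3 together for Mfap5 (0.16), Lum (0.04), Pi16 (0.06), Cxcl14 (0.10) and Dcn (0.14). With 1 mouse left out, ranges that crossed 0 were, in knockout against control, Dcn -0.18 to 0.07 and Smoc2 -0.06 to 0.02, and in D489V against control, Dcn -0.07 to 0.07, Dpt -0.08 to 0.13, Pi16 -0.25 to 0.13 and Ly6a -0.11 to 0.20. In knockout against D489V they were Dcn -0.19 to 0.06, Lum -0.20 to 0.05, Pi16 -0.35 to 0.03, Mfap5 -0.27 to 0.03, Cxcl14 -0.25 to 0.09 and Dpp4 -0.13 to 0.14.

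Counts of all genes called moved more. In knockout against control (1 gene) there were 3 with upper-quartile rescaling, 3 with quantile normalization, 15 in one fit of all 15 samples, 3 without control 5 and knockout 3 to 5, and 1 to 7 with 1 mouse left out. In D489V against control (9 genes) quantile normalization gave 16, a pseudocount of 5 gave 19, robust eBayes 21, upper-quartile rescaling 23, array weights 86, a minimum mean value of 50 gave 4, one fit of all 15 samples 1, and leaving out 1 mouse 2 to 26. In knockout against D489V (3181 genes) there were 586 without knockout 3 to 5, 1589 without knockout 3 and D489V 3 together, and 1398 to 3686 with 1 mouse left out.

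A fit with a block for the replicate number called 1, 7 and 2208 genes in the 3 comparisons and 0 of the 10. Of the wider lists against control, it called 1 gene of the Cxcl14 and Smoc2 list, higher, and 1 of the Ly6 cluster, lower, in D489V. Between the mutant groups it called 2 rather than 1 of the Pi16 and Dpp4 list and 1 rather than 0 of the activated fibroblast list. It called 4 rather than 5 identity genes, 3 rather than 4 of the Cxcl14 and Smoc2 list and 3 rather than 4 relatives. There were also 4 rather than 8 nerve markers and 3 rather than 5 mural markers. Same-numbered samples deviated together by correlations of -0.23 to 0.25, -0.37 to 0.35 and -0.10 to 0.10, and 2, 2 and 1 of 5 correlated best with their own number, so the numbers were not taken to pair the mice.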

Other observations

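The balance of the population genes differed widely between mice of 1 group. The ratio of Pi16 to Cxcl14 was 0.604, 0.418, 0.441, 0.555 and 0.671 in control, 0.254, 0.313, 0.776, 0.924 and 0.725 in knockout, and 0.397, 0.522, 1.08, 0.663 and 0.433 in D489V. Exact permutation tests of the 3 comparisons on the log scale gave p = 0.992 for knockout against control, 0.73 for D489V against control and 0.786 for knockout against D489V.

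Hoxd9, a homeobox gene of position along the limb, was read at 210, 166, 153, 614 and 577 in the same control mice, 274, 179, 638, 707 and 655 in knockout and 294, 258, 672, 255 and 204 in D489V. The 4 mice with the highest Pi16 to Cxcl14 ratios, D489V 3 and knockout 3, 4 and 5, were among the 6 with the highest Hoxd9. With control 4 and 5 they made up these 6, which were not spread evenly over the groups. Control 4 and 5 also held the lowest control values of Dpt (1333 and 1335), Lum (971 and 855) and Adipoq (179 and 351). Knockout 5 and D489V 3, however, held the highest Dpt of their groups (1796 and 1856). These patterns were noticed in the data, and their part in the comparisons between groups was not tested.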
